A study of Mus musculus with 9 samples.

Results

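Primary neural stem cells of the mouse brain subventricular zone, grown as adherent cultures, were compared after treatment with sh900, one of 2 short hairpin RNAs against Phf2, and with a non-targeting hairpin (shNT). The comparison used 6 of the 9 RNA-seq libraries of the study: 3 with sh900 and 3 with shNT, chosen by the treatment named for each sample. All cells were embryonic by the growth protocol, were kept in medium with FGF at 10 ng/mL and EGF at 20 ng/mL on laminin at 5 µg/mL, and were harvested 3 days after treatment. The other 3 libraries carried the second hairpin, sh902, and served here to estimate the spread between libraries and to set the hairpins side by side. No promoter, vector, mouse strain or age beyond this was given. The labels do not say whether the libraries came from separate cultures or animals, so every p-value reflects only how much these libraries vary, which may be technical.

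Each group held 1 library with no date in its label, 1 labelled 30_08 and 1 labelled 03_09. What the dates mark is not stated. Values of 3 libraries are given below in the order undated, 30_08 and 03_09. Levels are CPM, the count of a gene scaled to a common library size, with TMM factors that also correct for composition. They are not divided by gene length and are compared between libraries only, not between genes. A gene is called higher or lower when its adjusted p was under 0.05 in edgeR's quasi-likelihood test over all 9 libraries with the date label as a block. Log2 fold changes are from that fit, sh900 relative to shNT, with 3 libraries a group. The ± is a standard error derived from the test statistic, with the spread estimated over all 9 libraries and label differences removed.

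Phf2 is a Jumonji-domain histone demethylase of the KDM7 family. Its PHD finger binds trimethylated lysine 4 of histone H3, a mark of active promoters, and it acts on methylated lysine 9 of that histone, a mark of silent chromatin that HP1 proteins read. Neural stem cells of the subventricular zone divide in response to FGF and EGF and can give rise to neurons, astrocytes and oligodendrocytes. A short hairpin RNA is cut to a small interfering RNA that directs the breakdown of its target mRNA; a given hairpin can also lower other transcripts.

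The 6 libraries held between 25766537 and 32392496 estimated counts. Mitochondrial genes took 1.43 to 1.89% of the counts. The shNT libraries had a count in 31444, 26175 and 30614 genes and the sh900 libraries in 26747, 23836 and 24905 genes, with the lowest number at 30_08 in both groups. Of 54232 genes in the table, 17602 passed the filter on low counts and were tested.

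Phf2 (chr13:48801750.0-48871119.0 on GRCm38, minus strand) was at 56.3, 52.8 and 48.6 CPM in the shNT libraries and 19.8, 14.9 and 25.5 CPM in the sh900 libraries. All sh900 libraries were below all shNT libraries. At the same label, sh900 left 35.2, 28.3 and 52.4% of the shNT level, least at 30_08 and most at 03_09. In the fit Phf2 fell by 1.43 ± 0.19 on the log2 scale (edgeR adjusted p = 0.00864). A two-sided exact permutation test over the 3 and 3 libraries gave p = 0.1, the smallest that 20 assignments allow. The call did not hold without the shNT undated library (adjusted p = 0.0513), without the sh900 undated library (0.0656) or without the sh900 30_08 library (0.0808), while the log2 fold change stayed between -1.31 and -1.43 in these 3 fits. It was also lost without the label as a block (adjusted p = 0.125) and in the 6 dated libraries alone (adjusted p = 0.171). With sh902 Phf2 was at 25.01, 16.96 and 28.1 CPM, and sh900 and sh902 differed by -0.22 ± 0.19 on the log2 scale (adjusted p = 0.55). The closest relatives of Phf2 were not called: Phf8 had a log2 fold change of 0.38 ± 0.17 (adjusted p = 0.192) and Kdm7a one of -0.17 ± 0.28 (adjusted p = 0.741).

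With sh900, 949 genes were called higher (5.39% of those tested) and 608 lower (3.45%). The median log2 fold change was 1.19 among the higher and -1.03 among the lower genes, against -0.0221 over all genes tested. Of the higher genes, 946 were higher in each same-label pair of libraries, 572 changed at least 2-fold in the fit and 248 were at least 2-fold higher at all 3 labels. The lower genes included 607 that were lower at each label, 318 at least 2-fold lower in the fit and 65 at least 2-fold lower at all 3 labels. With the label as a block, the test favours genes that agree across labels, so the same-direction counts were largely fixed in advance. Over all tested genes, 1.52% were at least 2-fold higher and 0.534% at least 2-fold lower at all 3 labels. The 3 sh900 libraries lay wholly above the 3 shNT libraries for 500 of the called higher genes and wholly below for 329 of the called lower genes; over all genes tested such separation was seen for 8.58% upward and 8.82% downward.

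These counts depend on the date label and on single libraries. Without the label as a block edgeR called 0 genes, with 2585 at an unadjusted p under 0.05, against 4743 with the block. All 1557 called genes had the same sign without the block. Each label occurs once in every group and these genes were selected by their call, so this was largely fixed in advance. In 9 further fits, each leaving out 1 library (the leave-one-out fits), between 88 and 2912 genes were called: 88 without sh900 undated, 102 without sh900 30_08, 192 without shNT undated, 588 without sh902 undated, 840 without shNT 03_09, 1016 without sh902 03_09, 1021 without sh900 03_09, 1825 without sh902 30_08 and 2912 without shNT 30_08. The numbers of the 1557 calls kept were 87, 100, 186, 587, 724, 971, 900, 1445 and 1407 in that order. Where given below, "held in 6 of 9" and the like is the number of leave-one-out fits that kept a gene's call. Some genes named below without it lost their call in most of these fits. Fzd7 and Fam135b held in 1 of 9. Hbegf, Bmp7, Hes1, Dlx2, Pdgfra, Insm1, Dcc, Ifi44, Rsph1 and Gm9934 held in 2. Areg, Cxcl5, Irf7, Itga5, Jag1, Jag2, Sema3c, Sema4a, Lama4, Lamc1, Gja1, Mbp, Dcx, Sox8, Spry2, Hmga1, Lrp5, Slc7a5, Tmc3 and Tnnt3 held in 3. Aqp4, Nnat, Mfng, Plagl1, Ugt8a, Sox11, Adamts1, Itgav and Fgf1 held in 4. Of the genes named here, those at 6 of 9 lost the call without shNT undated, without sh900 undated and without sh900 30_08, and those at 7 or 8 of 9 lost it without 1 or 2 of these libraries.

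Calls for 63 genes held in all 9 leave-one-out fits, 60 higher and 3 lower. The 3 lower genes were Slc7a2, a cationic amino acid transporter, Chst3, a sulfotransferase acting on chondroitin, and Skil, a repressor of SMAD-dependent TGF-beta signalling. Slc7a2 was at 34.8, 32.2 and 64.6 CPM in the shNT libraries and 5.02, 3.76 and 18.6 CPM in the sh900 libraries. Chst3 was at 41.5, 39.9 and 49.7 CPM in the shNT libraries and 11.8, 11.01 and 17.3 CPM in the sh900 libraries, and Skil at 72.2, 102 and 81.9 CPM in the shNT libraries and 24.8, 38.3 and 37.9 CPM in the sh900 libraries. For each of them the lowest shNT value lay above the highest sh900 value. The log2 fold changes were -2.52 ± 0.28 for Slc7a2, -1.72 ± 0.17 for Chst3 and -1.35 ± 0.15 for Skil, with edgeR adjusted p of 0.00599, 0.00414 and 0.00567. Chst3 and Skil were chosen after their values were seen.

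Among the 60 higher genes, Perp, Ano3 and Ltbp1 shared the smallest adjusted p (0.000487). Perp, a membrane protein of cell junctions and a p53 target, was at 6.98, 9.81 and 3.62 CPM in the shNT libraries and 56.6, 68.9 and 29.8 CPM in the sh900 libraries. The groups did not overlap, and the same-label log2 ratios were close to each other at 2.93, 2.75 and 2.87. Ano3, of the anoctamin family, was at 26.6, 40.5 and 15.6 CPM in the shNT libraries and 175, 228 and 99.7 CPM in the sh900 libraries. Ltbp1, which holds latent TGF-beta in the matrix, was at 6.14, 12.8 and 2.4 CPM in the shNT libraries and 63.03, 143 and 20.7 CPM in the sh900 libraries. Both rose at every label with no overlap between groups, by 2.63 ± 0.15 for Ano3 and 3.32 ± 0.18 for Ltbp1 on the log2 scale; these 2 genes were named after their values were seen. Lmna, which encodes lamins A and C of the nuclear envelope, was at 51.9, 67.02 and 30.4 CPM in the shNT libraries and 141, 209 and 88.2 CPM in the sh900 libraries and also rose (log2 fold change 1.54 ± 0.14, adjusted p = 0.0035); it was likewise named after its values were seen.

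**Figure D1:**
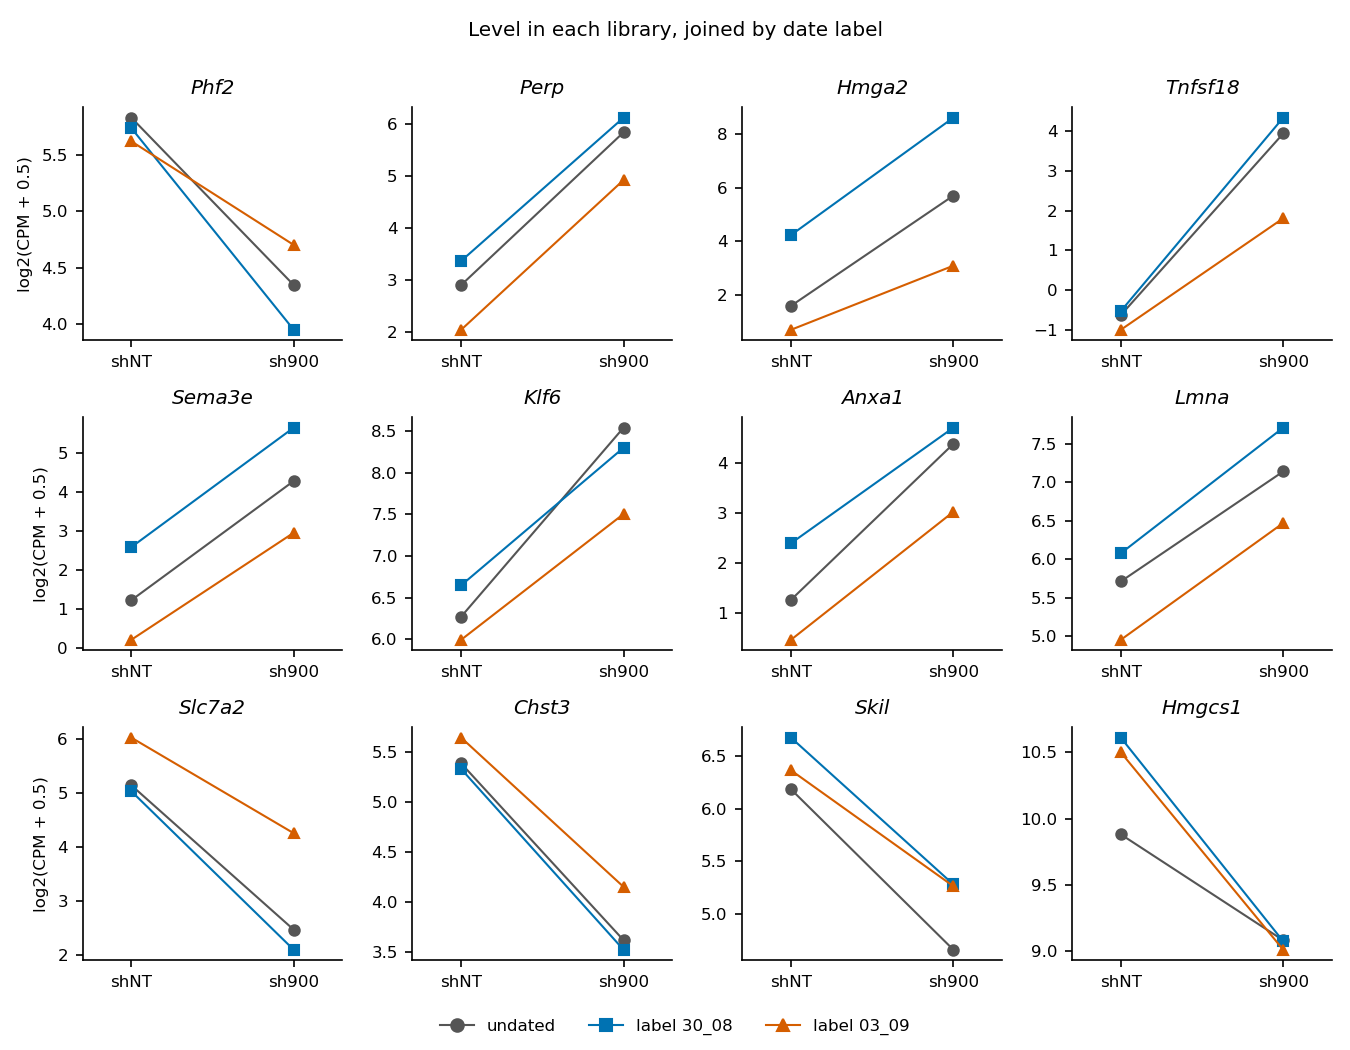
Level of Phf2 and 11 other genes in each library, as log2(CPM + 0.5), with shNT and sh900 libraries of the same date label joined by a line; each panel has its own vertical axis. Phf2, Slc7a2, Chst3, Skil and Hmgcs1 are lower in all 3 sh900 libraries than in any shNT library, and the other genes are higher at every label although Hmga2 levels differ more between labels than between groups.

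The largest increases included genes close to 0 in the control. Tnfsf18, a ligand of the TNF family, was at 0.146, 0.192 and 0 CPM in the shNT libraries and 14.9, 19.8 and 3.01 CPM in the sh900 libraries; Nefl, the neurofilament light chain, was at 0, 0.269 and 0.0382 CPM in the shNT libraries and 3.5, 12.9 and 0.77 CPM in the sh900 libraries. For both genes the groups were apart, and the calls held in 9 of 9 leave-one-out fits, with log2 fold changes of 6.70 ± 0.69 and 6.09 ± 0.80 that depend on the few control counts. Tfap2c, a transcription factor of early embryonic and neural crest lineages, was at 0.219, 0.269 and 0.0382 CPM in the shNT libraries and 11.3, 8.56 and 2.05 CPM in the sh900 libraries (held in 5 of 9; it lost its call also without sh902 undated). Htr1b, a serotonin receptor, was at 0.329, 2 and 0.191 CPM in the shNT libraries and 18.2, 47.8 and 2.6 CPM in the sh900 libraries and was held in 8 of 9. Further genes of this rank were Cyp24a1, the hydroxylase that inactivates vitamin D (log2 fold change 4.52 ± 0.50), Cemip, a hyaluronan-binding protein (4.42 ± 0.61), H60b, a ligand of the NKG2D receptor (4.22 ± 0.68), and Cftr, a chloride channel (3.89 ± 0.55). These 4 were higher at every label, and their calls held in 8, 6, 6 and 6 of 9 fits.

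The largest decreases included genes whose control level differed strongly between labels. Gpr17, a receptor of oligodendrocyte precursors about to mature, was at 62.3, 6.19 and 375 CPM in the shNT libraries and 4.86, 0.634 and 89.05 CPM in the sh900 libraries; Aqp4, the water channel of astrocytes, was at 645, 46.2 and 1514 CPM in the shNT libraries and 69.2, 5.43 and 538 CPM in the sh900 libraries. Levels were lowest at 30_08 and highest at 03_09 in both groups, so that the groups overlapped although each same-label pair was lower with sh900. Nnat, an imprinted membrane proteolipid of the developing brain, was at 1509, 463 and 1766 CPM in the shNT libraries and 127, 82.9 and 654 CPM in the sh900 libraries, and Cdkn1c, an imprinted cyclin-dependent kinase inhibitor, at 18.2, 2.54 and 43.5 CPM in the shNT libraries and 2.12, 0.753 and 6.6 CPM in the sh900 libraries. They fell by 2.498 ± 0.50 and 2.63 ± 0.43 on the log2 scale (adjusted p = 0.035 and 0.0148). Slc44a5, a choline transporter-like protein, was at 4.06, 8.77 and 11.7 CPM in the shNT libraries and 0.386, 1.5 and 2.53 CPM in the sh900 libraries, without overlap, and its call held in 7 of 9. Fam69c, Atp2b2, Bmp3, Fxyd1, Fxyd3 and Bgn completed the 12 lower genes with the largest change, with log2 fold changes from -3.45 for Bmp3 to -2.55 for Atp2b2, each held in 1 to 6 of 9 fits, and 3 of them (Bmp3, Fxyd3 and Bgn) had no count in sh900 30_08.

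Called genes were also named by their CPM, a choice that favours long transcripts and compares no levels between genes: Vim, Ccnd2, Tnc, Sptan1 and Serpine2 among the higher and Marcks, Qk, Hmgcs1, Nnat and Cbx5 among the lower. Ccnd2, the D-type cyclin that drives entry into the cell cycle in neural progenitors, was at 273, 1112 and 214 CPM in the shNT libraries and 4210, 5026 and 1935 CPM in the sh900 libraries, all sh900 values above all shNT values. Its log2 fold change was 3.01 ± 0.53 (adjusted p = 0.0247), held in 4 of 9. Vim, the intermediate filament vimentin, was at 2715, 2946 and 1759 CPM in the shNT libraries and 5758, 7563 and 3631 CPM in the sh900 libraries. Sptan1, a spectrin of the membrane skeleton, and Serpine2, a secreted protease inhibitor, had log2 fold changes of 0.83 ± 0.19 and 0.68 ± 0.15. Marcks, an actin-binding substrate of protein kinase C, was at 3413, 1678 and 2992 CPM in the shNT libraries and 871, 426 and 1686 CPM in the sh900 libraries. Qk, an RNA-binding protein of glia, fell by 0.68 ± 0.15 without overlap. The calls for Sptan1, Serpine2 and Qk held in 2, 3 and 3 of 9 fits.

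Lists of genes with a common role were then read through the same fit. A list is described by its members called and by its medians; no test of a list was made. p53 is a transcription factor that halts the cell cycle and can start cell death after DNA damage and other stress. Of 30 tested p53 targets 15 were called higher and 1 (3.33%) lower, against 5.39% and 3.45% of all genes. The median same-label log2 ratio of the list was 0.84, 0.78 and 0.82, which differed by less between labels than that of any other list with 7 or more called members. Tnfrsf10b and Fas are death receptors; Tnfrsf10b was at 8.59, 19.96 and 5.65 CPM in the shNT libraries and 59.4, 73.99 and 24.1 CPM in the sh900 libraries, with no overlap, and Fas rose by 1.38 ± 0.16. Plk2, a stress-induced polo-like kinase, was at 65.95, 146 and 43.9 CPM in the shNT libraries and 259.7, 378 and 135 CPM in the sh900 libraries, and Phlda3, an inhibitor of AKT, rose by 1.45 ± 0.16. Calls for Perp, Plk2, Tnfrsf10b, Phlda3 and Fas held in 9 of 9 leave-one-out fits. Cdkn1a, the inhibitor p21 that stops cyclin-dependent kinases, was at 219.9, 418 and 90.3 CPM in the shNT libraries and 659, 938 and 344 CPM in the sh900 libraries; its groups overlapped across labels, and its call held in 6 of 9. Mdm2, which degrades p53, and Bax and Bbc3, which act in mitochondrial cell death, had log2 fold changes of 0.80 ± 0.18, 0.58 ± 0.14 and 0.93 ± 0.22, held in 4, 2 and 2 of 9. The member called lower was Sesn1, a stress-response regulator of mTORC1, at 82.5, 43.8 and 77.6 CPM in the shNT libraries and 34.4, 21.3 and 45.99 CPM in the sh900 libraries. Against the same controls sh902 also gave 15 higher and 1 lower call in this list. The number called higher with sh900 was 5 without sh900 undated and 17 without shNT 30_08.

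**Figure D2:**
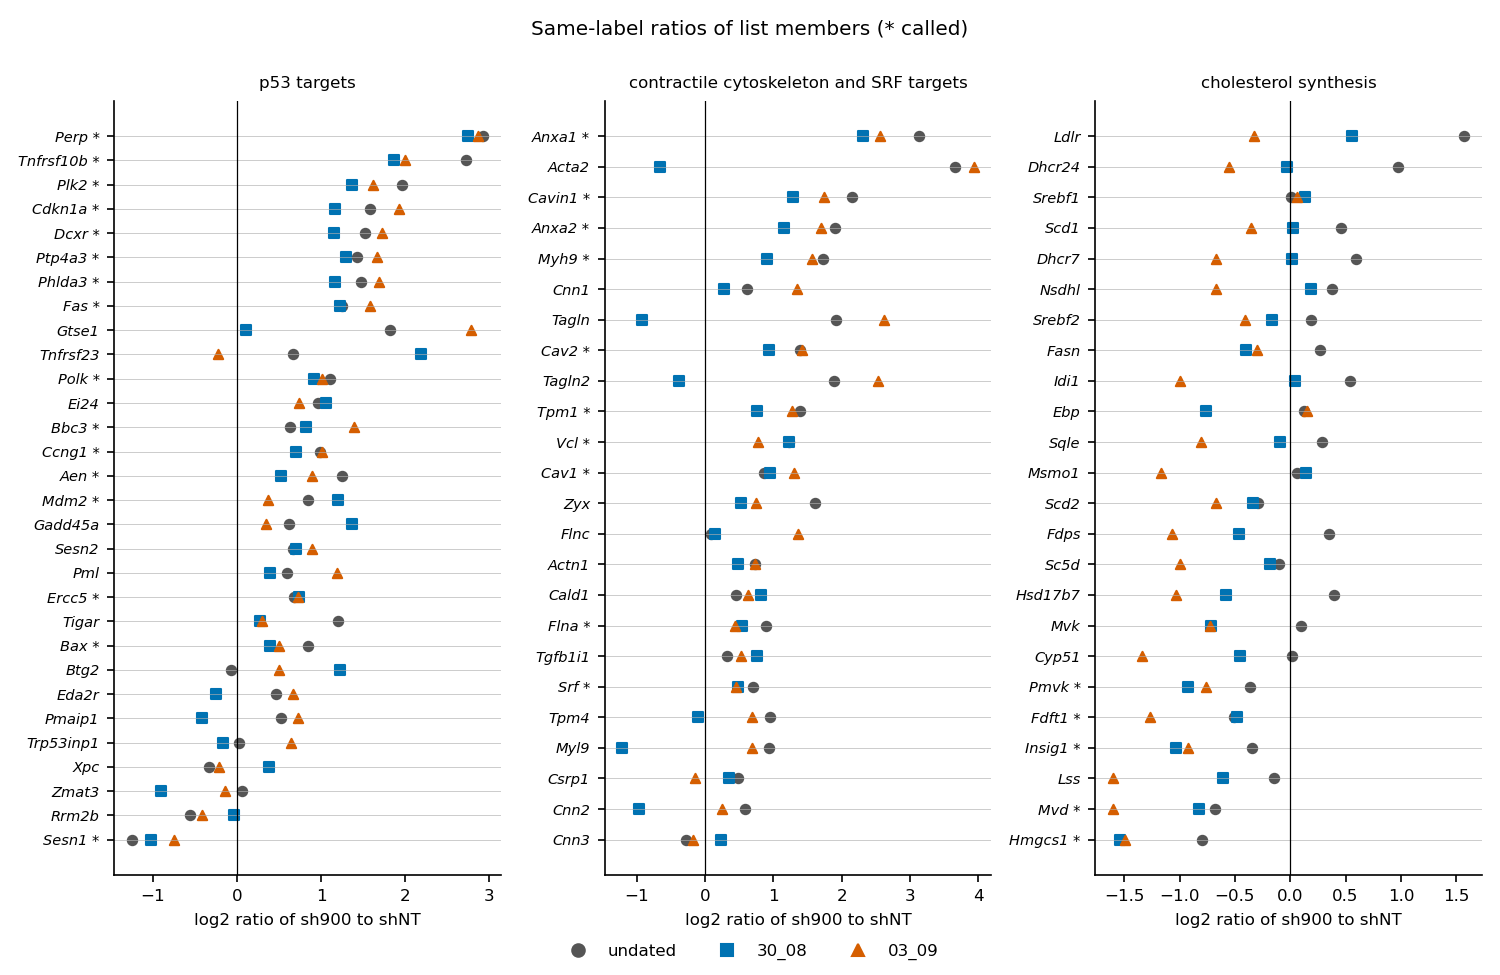
Same-label log2 ratio of sh900 to shNT for tested members of 3 lists, with 1 symbol for each date label and an asterisk at called genes. p53 targets lie mostly to the right of 0 at all labels, contractile genes such as Acta2 and Tagln change sign at 30_08, and cholesterol genes mostly lie furthest to the left at 03_09.

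Cell cycle genes differed in opposite directions at the dated labels. By edgeR 0 of 30 mitosis and 0 of 30 DNA replication genes were called, and DESeq2 and limma-voom also called 0. The unadjusted p was under 0.05 for 0 genes of either list in all 3 tests. Without shNT 30_08, however, edgeR called 21 DNA replication genes and 1 mitosis gene higher with sh900; in the other 8 leave-one-out fits it called 0. Mki67, the marker of dividing cells, was at 291, 868 and 60.1 CPM in the shNT libraries and 413, 194 and 326 CPM in the sh900 libraries. The highest and the lowest of these values were both in the shNT group, at 30_08 and 03_09, and the sh900 values lay between them. Summed over 30 mitosis genes, the level was 1903, 5306 and 360 CPM with shNT and 2506, 1403 and 1952 CPM with sh900. The median log2 ratio of these genes was 0.44, -1.90 and 2.44, and all 30 were at least 2-fold lower with sh900 at 30_08 and at least 2-fold higher at 03_09. For 30 DNA replication genes, among them Mcm2 of the replicative helicase at 53.6, 199.6 and 21.2 CPM in the shNT libraries and 106, 67.7 and 70.8 CPM in the sh900 libraries, the median was 0.66, -1.74 and 1.28. Across all genes tested, 289 were at least 2-fold lower at 30_08 and at least 2-fold higher at 03_09, and 0 of them were called; 13 did the reverse. By comparison 304 genes were at least 2-fold higher at both dates, 261 of them called, and 114 at least 2-fold lower at both, 71 of them called. The calls rest on these same libraries with the label as a block, so this contrast in calls was largely fixed in advance.

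The genes with the strongest reversal were Fancd2, of the Fanconi DNA repair pathway, Pimreg, a mitotic regulator, and Hist1h3c, a replication-dependent histone. Fancd2 was at 15.5, 55.4 and 2.86 CPM in the shNT libraries and 20.1, 9.94 and 18.1 CPM in the sh900 libraries. In the other direction were Nkain2, which interacts with the sodium pump, Naaa, a lysosomal amidase, and Pak3, a kinase of neuronal morphology, at 154, 12.4 and 301 CPM in the shNT libraries and 33.6, 26.7 and 117 CPM in the sh900 libraries. For all 6 genes the shNT 30_08 and shNT 03_09 libraries were the extremes of the 6 values. Of 23 G1/S regulators, Ccnd2 was called higher (4.35%) and Cdkn1c and Mycn lower (8.7%), against 5.39% and 3.45% of all genes tested. Mycn, a transcription factor of progenitor growth, was at 17.4, 3.54 and 18.96 CPM in the shNT libraries and 5.43, 2.38 and 11.4 CPM in the sh900 libraries, held in 2 of 9.

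**Figure D3:**
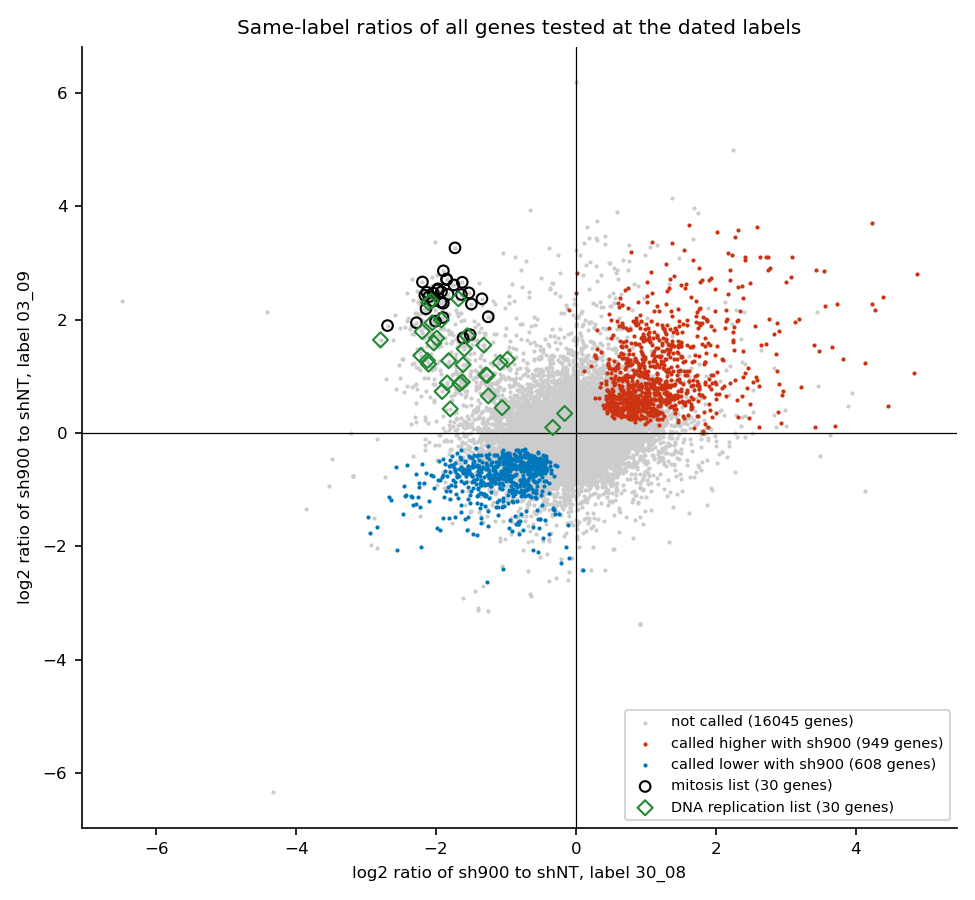
Log2 ratio of sh900 to shNT at label 30_08 (horizontal) against label 03_09 (vertical), 1 point for each of 17602 genes tested, coloured by call, with the 30 mitosis genes (circles) and 30 DNA replication genes (diamonds) outlined. The called genes lie mainly in the quadrants where both ratios have the same sign, which the test with the label as a block favours. All mitosis genes lie in the upper left quadrant, lower at 30_08 and higher at 03_09.

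Genes of the contractile cytoskeleton and its regulator SRF, which links actin state to transcription, were called higher in 10 of 24 cases (41.7%) and lower in 0. Anxa1 and Anxa2 are membrane- and actin-binding annexins. Anxa1 was at 1.9, 4.77 and 0.878 CPM in the shNT libraries and 20.5, 25.8 and 7.67 CPM in the sh900 libraries; Anxa2 at 39.7, 79.98 and 26.3 CPM in the shNT libraries and 150.5, 179.6 and 86.6 CPM in the sh900 libraries. Neither gene's groups overlapped, and both calls held in 9 of 9. Cavin1 and Cav2, of caveolae, rose by 1.71 ± 0.21 and 1.26 ± 0.16, each held in 8 of 9. Myh9, a non-muscle myosin, was at 489, 751 and 244 CPM in the shNT libraries and 1623, 1407 and 722 CPM in the sh900 libraries, and Vcl, vinculin of focal adhesions, at 106, 164 and 87.1 CPM in the shNT libraries and 248, 387 and 150.3 CPM in the sh900 libraries, both overlapping between groups and held in 6 and 6 of 9. Srf itself rose by 0.54 ± 0.13 (adjusted p = 0.0445, held in 2 of 9). Acta2 and Tagln, of smooth muscle, did not pass the test: Acta2 was at 11.2, 52.95 and 6.64 CPM in the shNT libraries and 148, 33.3 and 109 CPM in the sh900 libraries (adjusted p = 0.246), lower with sh900 at 30_08 and higher at the other labels, and Tagln had same-label log2 ratios of 1.92, -0.92 and 2.62. Against sh902 directly, 7 members were higher with sh900. The count against shNT was 3 without sh900 undated.

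Of 24 integrins and adhesion receptors 11 were called higher (45.8%) and 0 lower. Cd44, a hyaluronan receptor, was at 32.3, 141 and 17.6 CPM in the shNT libraries and 82.5, 275 and 59.8 CPM in the sh900 libraries, with overlap between labels but higher in each pair, and held in 9 of 9. Itga4, an integrin chain that binds fibronectin and VCAM1, was at 6.07, 11.1 and 2.1 CPM in the shNT libraries and 158, 134 and 18.4 CPM in the sh900 libraries, with all sh900 libraries above all controls. Itga8, Tm4sf1, Cdh13, Cd151, Itgav and Itga5 also rose, by 3.91, 3.28, 1.28, 0.76, 1.07 and 1.25 on the log2 scale. Itga8 (adjusted p = 0.0425) held in 2 of 9. Only Cd44's call was kept in every leave-one-out fit, and 1 member was called without shNT undated, without sh900 undated or without sh900 30_08.

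Among 30 collagens and matrix genes 8 were called higher (26.7%) and 0 lower. Col18a1, a basement membrane collagen, was at 22.7, 39.2 and 6.49 CPM in the shNT libraries and 239.6, 238 and 86.3 CPM in the sh900 libraries, without overlap. Sparc, a matrix glycoprotein, was at 485, 418 and 311 CPM in the shNT libraries and 967, 979 and 556 CPM in the sh900 libraries, also without overlap. The laminin chains Lamb1, Lama4 and Lamc1 rose by 1.27, 1.77 and 1.27; Lamb1 values ran from 14.7 to 276 CPM within the shNT group alone. Sparc was held in 7 and Col18a1 in 6 of 9, and without sh900 undated 0 members were called. Of 21 metalloproteinases and inhibitors, Plaur, the urokinase receptor (3.11 ± 0.50), and Adamts1, a matrix protease (1.67 ± 0.32), were called higher and Mmp17, a membrane-bound metalloproteinase (-1.08 ± 0.19), lower. The higher and lower calls were 9.52% and 4.76% of this list, against 5.39% and 3.45% of all genes tested.

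Growth factors and their receptors gave 8 higher (32.0%) and 1 lower call among 25. Pdgfa, a mitogen of oligodendrocyte precursors, was at 12.3, 35.7 and 8.62 CPM in the shNT libraries and 63.8, 154 and 21.7 CPM in the sh900 libraries; the call held in 9 of 9, and each pair was higher with sh900 although the groups overlapped. The EGF receptor ligands Areg, Ereg and Hbegf were called higher. Hbegf was at 10.2, 66.3 and 10.8 CPM in the shNT libraries and 56.8, 125 and 40.3 CPM in the sh900 libraries, and Ereg at 0.0731, 0.0769 and 0.0763 CPM in the shNT libraries and 1.42, 0.277 and 0.55 CPM in the sh900 libraries, close to the limit of a few counts. Pdgfb and Vegfc, ligands of vascular cells, rose by 3.87 ± 0.60 and 1.88 ± 0.32. Kitl, the ligand of Kit, rose by 1.11 ± 0.20, while Kit, its receptor, was at 23.9, 11.8 and 48.7 CPM in the shNT libraries and 11.3, 4.67 and 15.2 CPM in the sh900 libraries and fell by 1.38 ± 0.22 (held in 7 of 9). Nrg1, a ligand of ERBB receptors and not on the list, was at 3.51, 6.96 and 3.01 CPM in the shNT libraries and 20.4, 28.99 and 20.03 CPM in the sh900 libraries and held in 9 of 9; it was named after its values were seen. Of the list, 1 member was called higher without shNT undated or without sh900 undated, and 0 were called lower without sh900 undated or without sh900 30_08.

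ERK signalling downstream of these receptors induces its own inhibitors. Of 13 such feedback genes 4 were called higher (30.8%) and 1 lower. Dusp4, a phosphatase that inactivates ERK, was at 10.3, 12.5 and 4.54 CPM in the shNT libraries and 114, 119 and 19.7 CPM in the sh900 libraries, without overlap, and held in 9 of 9. Spred3 and Spry2, inhibitors of RAS-ERK signalling, rose by 0.96 ± 0.16 and 0.86 ± 0.20. Spry4 was at 33.6, 192 and 6.98 CPM in the shNT libraries and 455, 533 and 63.3 CPM in the sh900 libraries and did not pass the test (log2 fold change 2.62 ± 0.76, adjusted p = 0.0927). Il17rd, an antagonist of FGF signalling, fell by 0.78 ± 0.18 and kept its call in 1 of 9. Without shNT undated, without sh900 undated or without sh900 30_08, 1 member was called higher.

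Immediate early and Krüppel-like genes, which respond within minutes to hours to growth factors and stress, had 8 of 25 members called higher (32.0%) and 0 lower, with a median log2 fold change of 0.66. Klf6 was at 76.7, 99.8 and 63.2 CPM in the shNT libraries and 373, 315 and 181 CPM in the sh900 libraries, without overlap, held in 9 of 9. Fosl2, an AP-1 subunit, and Klf4 rose by 1.47 ± 0.20 and 1.47 ± 0.23, Ier3 and Atf3 by 3.14 ± 0.45 and 3.07 ± 0.48. Jun, another AP-1 subunit, was at 228, 231 and 252 CPM in the shNT libraries and 476, 489.9 and 452 CPM in the sh900 libraries: its sh900 values were within a narrow range and well above all controls, and its call held in 4 of 9. The lowest number of members called was 2, without sh900 undated or without sh900 30_08.

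NF-kB and inflammation genes were called higher in 9 of 20 tested cases (45.0%) and lower in 0, against 5.39% and 3.45% of all genes tested. Of these 9 calls, 0 were kept in every leave-one-out fit. Each held in between 0 and 8 of 9 fits. With sh902 against the same controls the list had 3 higher and 1 lower call. The list as a whole did not rise at every label. Its same-label medians were 0.10, 1.12 and 0.66, and 7 members had a negative log2 fold change. The summed level was 416.5, 266.6 and 458.2 CPM with shNT and 405, 549.2 and 396.2 CPM with sh900, higher with sh900 at 30_08 only. The neutrophil chemokine Cxcl1 was at 0.146, 0.115 and 0.0763 CPM in the shNT libraries and 2.7, 1.66 and 1.87 CPM in the sh900 libraries, without overlap. Ccl2, a monocyte chemokine, was at 0.438, 3.23 and 0.229 CPM in the shNT libraries and 7.59, 69.3 and 3.01 CPM in the sh900 libraries, and Csf1, the growth factor of macrophages, at 63.8, 61.95 and 60.2 CPM in the shNT libraries and 174, 211 and 97.6 CPM in the sh900 libraries. Tlr4, the endotoxin receptor, and Lif, a cytokine that acts on neural stem cells, rose by 2.77 ± 0.42 and 2.29 ± 0.38. Cxcl5 and Ccl7 rose by 3.89 ± 0.87 and 3.85 ± 0.69 from control levels of at most 0.5 CPM. Without shNT undated or without sh900 30_08 only 1 member was called. Receptors of the TNF family outside the list, Tnfrsf12a and Tnfrsf1a, rose by 2.51 ± 0.28 and 1.19 ± 0.13 with calls held in 9 of 9, named after their values were seen.

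The interferon response, which cells raise against viral RNA and DNA, had 7 of 27 genes called higher (25.9%) and 0 lower, with a median log2 fold change of 1.29. The same-label medians were 0.75, 0.48 and 2.29, largest at 03_09. Irf7, the transcription factor that amplifies the response, was at 37.01, 1.73 and 4.62 CPM in the shNT libraries and 121, 4.2 and 36.2 CPM in the sh900 libraries. Both undated libraries had the highest level of their group and both 30_08 libraries the lowest, so the groups overlapped. Summed over the list, the level was 1556, 302 and 437 CPM with shNT and 2622, 407 and 1521 CPM with sh900. Tlr3, a receptor of double-stranded RNA, was at 23.9, 20.7 and 13.96 CPM in the shNT libraries and 77.5, 39.1 and 32.4 CPM in the sh900 libraries, without overlap. Ifi44 and Ddx58 rose by 2.21 ± 0.47 and 0.90 ± 0.18; Isg15 (1.53 ± 0.61, adjusted p = 0.173) and Ifit1 (1.55 ± 0.72, adjusted p = 0.236) did not pass the test. Ifi204 and Ifi202b were called higher too, but belong to a family of near-identical copies, so reads may have been divided between them. Without sh900 30_08 the number called was 0.

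**Figure D4:**
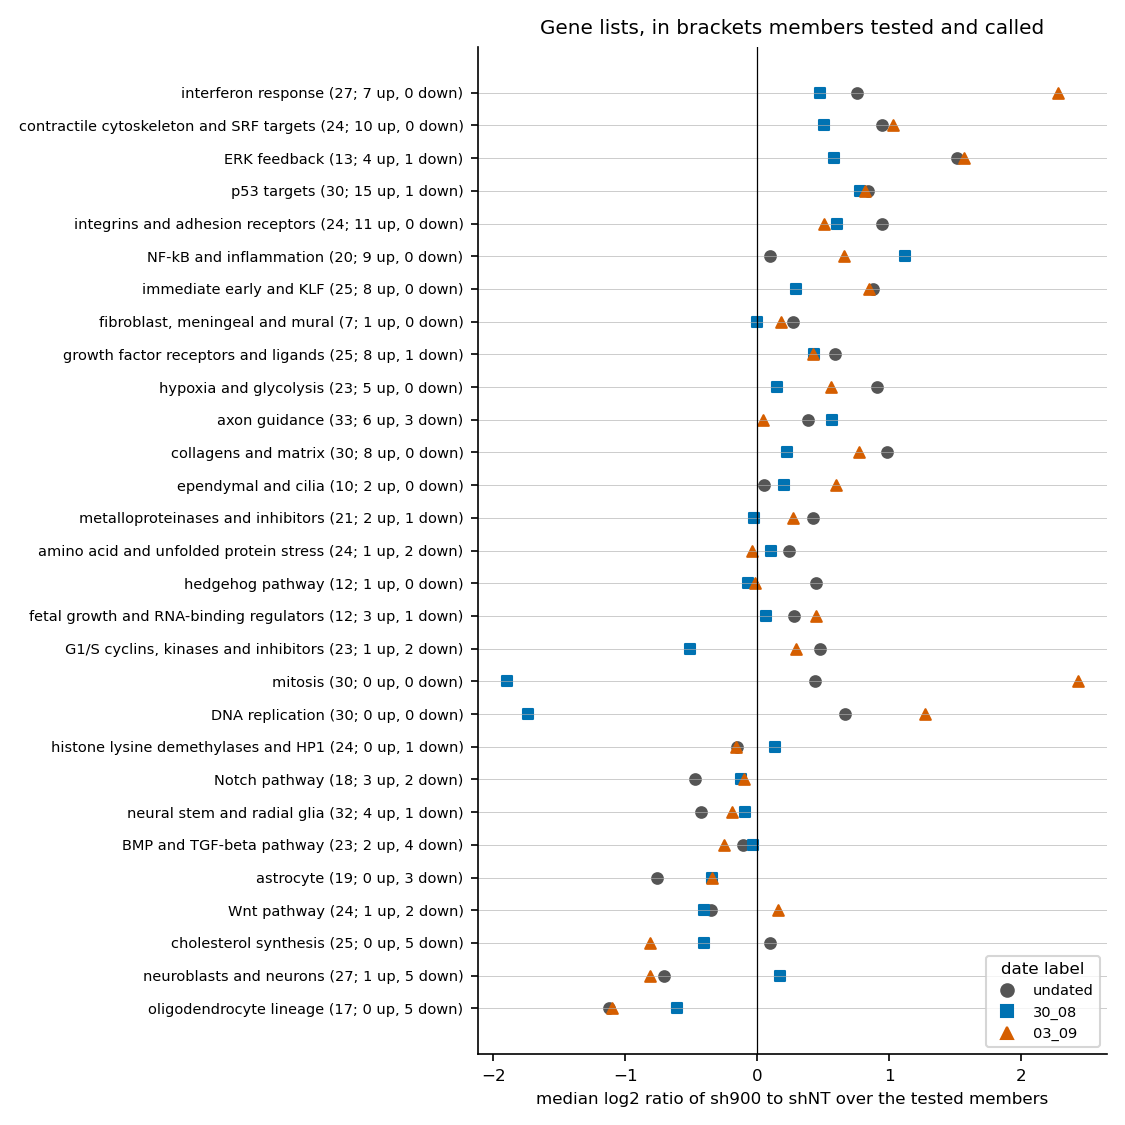
Median log2 ratio of sh900 to shNT over the tested members of each list with at least 7 tested members, 1 symbol for each date label, lists ordered by the median log2 fold change of the fit. p53 targets have nearly the same median at the 3 labels, and mitosis and DNA replication lie far apart at 30_08 and 03_09. The oligodendrocyte, astrocyte, neural stem and radial glia, Notch, and BMP and TGF-beta lists are below 0 at all 3 labels.

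Marker genes of the labelled cell type were present in every library. Sox2 was at 335, 177 and 346 CPM in the shNT libraries and 217, 211 and 319 CPM in the sh900 libraries, and Nes, nestin, at 374, 796 and 114 CPM in the shNT libraries and 1149, 1616 and 570.3 CPM in the sh900 libraries. Of 32 neural stem cell and radial glia genes 4 were called higher (12.5%) and 1 lower (3.12%), with a median of -0.30. The higher genes were Vim, Nes, Tnc, the matrix protein tenascin C, and Hes1, a Notch effector that keeps progenitors undifferentiated. Nes rose by 1.64 ± 0.23 and Tnc by 2.03 ± 0.35, each higher in every pair with overlap between the groups, and each held in 7 of 9. Nr2e1, a nuclear receptor needed for stem cell maintenance, fell by 0.85 ± 0.17. Fabp7, a fatty acid-binding protein of radial glia, had a log2 fold change of 0.45 ± 0.23 (adjusted p = 0.252), and Sox2 one of -0.18 ± 0.19 (adjusted p = 0.581).

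Markers of the cells that neural stem cells give rise to were also listed. Of 27 neuroblast and neuron genes 5 were called lower (18.5%) and 1, Nefl, higher. The same-label medians were -0.70, 0.17 and -0.81 on the log2 scale, with 14 of 27 members above 0 at 30_08, so the list as a whole was not lower at that label. Dcx, doublecortin of migrating neuroblasts, was at 9.97, 1.5 and 104 CPM in the shNT libraries and 1.29, 0.475 and 19.3 CPM in the sh900 libraries; its level was highest at 03_09 and lowest at 30_08 in both groups. Elavl3, a neuronal RNA-binding protein, fell by 1.93 ± 0.30, Insm1 by 0.86 ± 0.19, and Sox11, a transcription factor of newborn neurons, by 0.91 ± 0.17 without overlap. Dlx2, a factor of interneuron precursors, was at 23.2, 0.769 and 24.9 CPM in the shNT libraries and 3.96, 0.594 and 4.7 CPM in the sh900 libraries and was called lower (adjusted p = 0.0261). Tubb3, neuronal tubulin, was at 40.9, 3.27 and 93.9 CPM in the shNT libraries and 4.57, 3.13 and 19.9 CPM in the sh900 libraries and did not pass the test (adjusted p = 0.101). Gap43, a protein of growing axons, had higher values with sh900 at each label, at 5.48, 10.5 and 5.04 CPM in the shNT libraries and 35.6, 19.7 and 20.98 CPM in the sh900 libraries, and did not pass the test either (adjusted p = 0.103). Of 17 oligodendrocyte lineage genes 5 were called lower (29.4%) and 0 higher: Gpr17, Pdgfra, Ugt8a, Mbp and Sox8. Pdgfra, the receptor that marks oligodendrocyte precursors, was at 74.7, 11.1 and 266 CPM in the shNT libraries and 15.4, 6.73 and 124 CPM in the sh900 libraries. Olig2, which also marks progenitors, was at 483, 757 and 471 CPM in the shNT libraries and 578, 772 and 485 CPM in the sh900 libraries and had an adjusted p of 0.819. For both lists the number of lower calls was 0 without shNT undated, without sh900 undated or without sh900 30_08, and for oligodendrocyte genes also without sh902 undated; without shNT 30_08 it was 13 and 8.

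Of 19 astrocyte genes 3 were called lower (15.8%) and 0 higher; the count was 0 without shNT undated, without sh900 undated or without sh900 30_08. Gja1, connexin 43, was at 480.1, 63.3 and 1517 CPM in the shNT libraries and 102, 37.2 and 462 CPM in the sh900 libraries. Gfap, the astrocyte filament, was at 609.9, 8.77 and 1377 CPM in the shNT libraries and 59.4, 8.24 and 749 CPM in the sh900 libraries (log2 fold change -1.74 ± 1.002, adjusted p = 0.323). The summed level of the 19 genes was 12490, 2887 and 20410 CPM in shNT and 4544, 2887 and 12490 CPM in sh900, nearly equal between the groups at 30_08 and lower with sh900 at the other labels. In bulk RNA fewer cells of a type and less RNA per cell cannot be told apart. Of 10 ependymal and cilia genes, Ccdc153 (2.31 ± 0.37) and Rsph1 (1.46 ± 0.34) were called higher, at levels of at most 6.05 CPM. These calls were 20.0% of the list, against 5.39% of all genes tested.

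Markers of other cell types were low. The sum over 10 microglia markers was 0.768 to 2.08 CPM with shNT and 0.91 to 3.53 CPM with sh900, with C1qa and C1qb at 0 in all 6 libraries. P2ry12, the only microglia marker that passed the filter, was at 0.365, 0.308 and 0.763 CPM in the shNT libraries and 2.89, 0.594 and 0.66 CPM in the sh900 libraries and was not called (adjusted p = 0.208). Cxcl1 with sh900 was at a similarly low 2.7, 1.66 and 1.87 CPM, and the part of microglia in the chemokine and interferon results was not tested. Over 8 endothelial markers the sum was 5.22 to 9.45 and 3.21 to 3.52 CPM. Over 12 fibroblast, meningeal and mural markers the sum was 22.4 to 33.1 CPM with shNT and 28.3 to 77.2 CPM with sh900. Of the 7 tested, Foxc1, a transcription factor of meningeal and mural cells, was at 18.7, 30.3 and 9.73 CPM in the shNT libraries and 70.1, 64.7 and 17.4 CPM in the sh900 libraries and was called higher (1.28 ± 0.28, held in 4 of 9). This call was 14.3% of the 7, against 5.39% of all genes tested. The 7 summed to 23.3, 33.1 and 22.1 CPM with shNT and to 76.9, 69.2 and 28.3 CPM with sh900, and the 30 matrix genes to 1648, 2288 and 1033 CPM and to 3973, 3683 and 1847 CPM. Both sums were higher with sh900 at each label, but Foxc1 made up most of the first in the sh900 libraries. The other 6 markers summed to 4.57, 2.81 and 12.3 CPM with shNT and to 6.82, 4.55 and 10.9 CPM with sh900, lower with sh900 at 03_09, and none of them was called. The part of these cells in the matrix and contractile results was not tested.

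Some members were called in the signalling pathways that set neural stem cell fate. In the Notch pathway, in which ligands on one cell activate receptors on the next, 3 of 18 genes were called higher (16.7%) and 2 lower (11.1%); both counts were 0 without sh900 undated or without sh900 30_08. The ligand Dll3 was at 151, 22.8 and 178 CPM in the shNT libraries and 18.6, 7.25 and 61.5 CPM in the sh900 libraries and fell by 2.13 ± 0.37, and Mfng, a glycosyltransferase that modifies Notch, fell by 1.88 ± 0.37. The ligands Jag1 and Jag2 rose by 1.31 ± 0.29 and 1.94 ± 0.49, and the target Hes1 was at 27.1, 26.9 and 16.9 CPM in the shNT libraries and 97.9, 39.97 and 34.5 CPM in the sh900 libraries. Hes5, the other main target in these cells, was at 467, 76.6 and 279 CPM in the shNT libraries and 132, 11.1 and 163 CPM in the sh900 libraries, lower at each label, and missed the threshold (adjusted p = 0.0637).

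In the BMP and TGF-beta pathway 2 of 23 genes were called higher (8.7%) and 4 lower (17.4%), the latter 0 without shNT undated, without sh900 undated or without sh900 30_08. The type II receptor Tgfbr2 was at 39.6, 49.8 and 13.4 CPM in the shNT libraries and 328, 190.0 and 92.4 CPM in the sh900 libraries, all sh900 values above all controls, and held in 9 of 9. The type I receptor Tgfbr1 was at 82.1, 84.8 and 84.2 CPM in the shNT libraries and 33.8, 20.5 and 42.99 CPM in the sh900 libraries, all sh900 values below all controls, and held in 6 of 9. The receptor pair moved in opposite directions, by 2.57 ± 0.25 and -1.41 ± 0.21 on the log2 scale. Bmpr1b, a type I BMP receptor, fell by 1.09 ± 0.21, and the ligand Bmp7 rose by 1.02 ± 0.24. In the Wnt pathway 1 of 24 genes was called higher (4.17%) and 2 lower (8.33%), against 5.39% and 3.45% of all genes tested. The receptor Fzd1 rose by 1.96 ± 0.29 and was at 24.9, 36.6 and 26.02 CPM in the shNT libraries and 178, 104 and 78.9 CPM in the sh900 libraries, whereas Fzd7 and the co-receptor Lrp5 fell by 1.10 ± 0.27 and 0.86 ± 0.20. Of 12 hedgehog genes 1 (8.33%), the ligand Shh, was called higher, from 0.365, 0.0769 and 0.229 CPM to 8.84, 0.198 and 1.36 CPM, which leaves the 30_08 value within the control range. The Wnt and hedgehog counts were 0 in each direction without sh900 undated or without sh900 30_08.

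Axon guidance genes, which also direct migration of progenitors and vessels, gave 6 higher (18.2%) and 3 lower calls (9.09%) among 33. Sema3e, a secreted repellent, was at 1.83, 5.5 and 0.649 CPM in the shNT libraries and 19.04, 50.1 and 7.26 CPM in the sh900 libraries, without overlap, and held in 9 of 9. Epha2, a receptor of ephrin-A ligands, was at 1.24, 7.34 and 0.382 CPM in the shNT libraries and 18.2, 40.1 and 4.84 CPM in the sh900 libraries, higher in each pair, and held in 9 of 9. Nrp1, a co-receptor of semaphorins and VEGF, was at 28.1, 25.3 and 23.8 CPM in the shNT libraries and 78.2, 85.3 and 48.6 CPM in the sh900 libraries, without overlap. Sema3c and the netrin receptor Unc5b rose by 2.62 ± 0.54 and 1.15 ± 0.15; Sema4a and Dcc, the other main netrin receptor, fell by 2.48 ± 0.60 and 1.17 ± 0.29. Without sh900 undated or without sh900 30_08, 2 members were called higher and 0 lower.

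Cholesterol synthesis was called lower in 5 of 25 genes (20.0%) and higher in 0. The 5 were Hmgcs1, which makes HMG-CoA, Mvd and Pmvk of the mevalonate steps, Fdft1, squalene synthase, and Insig1, a sterol-responsive retention protein of the SREBP system. Hmgcs1 was at 943, 1565 and 1449 CPM in the shNT libraries and 541, 538 and 515 CPM in the sh900 libraries: the sh900 values were nearly equal and below every control. Mvd was at 46.2, 68.6 and 87.5 CPM in the shNT libraries and 28.6, 38.5 and 28.5 CPM in the sh900 libraries, and Insig1 at 247, 378 and 308 CPM in the shNT libraries and 194, 184 and 162 CPM in the sh900 libraries, both without overlap. Log2 fold changes were -1.28 ± 0.18, -1.07 ± 0.22, -0.70 ± 0.16, -0.77 ± 0.19 and -0.79 ± 0.20 in that order of naming, and calls held in 8, 5, 1, 2 and 2 of 9; without sh900 30_08 the list's count was 0. Lss, lanosterol synthase, was at 83.9, 178 and 164 CPM in the shNT libraries and 75.9, 117 and 53.8 CPM in the sh900 libraries (adjusted p = 0.124). The median same-label log2 ratio was 0.10, -0.40 and -0.81, so that the list as a whole was not lower at the undated label. Against the same controls sh902 gave 2 lower calls in this list, and 0 members differed between sh900 and sh902.

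In hypoxia and glycolysis 5 of 23 genes were called higher (21.7%) and 0 lower. Pfkp, a phosphofructokinase, was at 18.3, 32.9 and 28.2 CPM in the shNT libraries and 86.4, 102 and 60.96 CPM in the sh900 libraries, and Adm, adrenomedullin, at 17.9, 16.2 and 7.21 CPM in the shNT libraries and 56.8, 33.7 and 27.5 CPM in the sh900 libraries, both without overlap. Eno1 and Aldoa, enzymes of glycolysis, rose by 1.08 ± 0.24 and 0.88 ± 0.21; paralogs and pseudogenes of these enzymes make their counts uncertain. Calls held in 7 (Pfkp), 6 (Adm), 3 (Eno1) and 2 (Aldoa) of 9, and the list's count was 0 without sh900 undated or without sh900 30_08 and 11 without shNT 30_08. Of 24 genes of amino acid and unfolded protein stress 1 was called higher (4.17%) and 2 lower (8.33%), against 5.39% and 3.45% of all genes tested. Vldlr, the higher gene and a lipoprotein and reelin receptor, was at 35.5, 87.2 and 27.7 CPM in the shNT libraries and 189, 289 and 91.4 CPM in the sh900 libraries and held in 9 of 9. Phgdh, the first enzyme of serine synthesis, fell by 1.02 ± 0.15 and Slc7a5, a transporter of large neutral amino acids, by 0.60 ± 0.13, both without overlap; neither was called without shNT undated, without sh900 undated or without sh900 30_08.

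Among 24 histone lysine demethylases and HP1 proteins, a list that leaves out Phf2, 1 gene was called, lower (4.17%, against 3.45% of all genes tested). Cbx5, which encodes HP1-alpha, a reader of methylated lysine 9 of histone H3, was at 976, 1368 and 849 CPM in the shNT libraries and 428, 297 and 578 CPM in the sh900 libraries. All sh900 values were below all controls, and the log2 fold change was -1.33 ± 0.28 (adjusted p = 0.0302, held in 3 of 9). Of 12 fetal growth genes 3 were called higher (25.0%) and 1 lower (8.33%), against 5.39% and 3.45% of all genes tested. Hmga2, an architectural chromatin protein of fetal progenitors, was at 2.48, 18.2 and 1.11 CPM in the shNT libraries and 51.5, 392 and 7.96 CPM in the sh900 libraries, held in 9 of 9, each pair higher but the groups overlapping. Igf2bp2, an RNA-binding protein of the same programme, was at 19.99, 25.9 and 13.6 CPM in the shNT libraries and 53.8, 75.7 and 32.9 CPM in the sh900 libraries, without overlap and held in 9 of 9. Hmga1 rose by 0.97 ± 0.23, and Plagl1, an imprinted zinc finger protein, was at 23.4, 33.1 and 13.6 CPM in the shNT libraries and 7.17, 5.82 and 9.02 CPM in the sh900 libraries and fell by 1.55 ± 0.35.

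The sh900 libraries were also compared with the sh902 libraries directly, a contrast of the 2 hairpin groups in which the control libraries enter only through the shared fit (filter, spread and label effects). Of all genes tested 437 were higher with sh900 (2.48%) and 306 lower (1.74%). Only the comparison of sh900 with shNT was refitted without the label as a block or without single libraries. Against shNT, sh902 had 902 higher (5.12%) and 948 lower genes (5.39%), with the same 3 control libraries as sh900. Of the 949 genes called higher with sh900, 120 were above and 12 below sh902. Of the 608 called lower, 103 were below and 6 above sh902. The sh900 libraries that selected these genes also enter this contrast, so part of the lean in these directions comes from the selection.

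Among those above sh902, Cxcl1 was at 0.122, 0.171 and 0.0415 CPM with sh902, near its control level given earlier, and differed between hairpins by 4.20 ± 0.47 (adjusted p = 0.0184). Col19a1, a minor collagen, was at 0.438, 1.58 and 0.153 CPM in the shNT libraries and 8.23, 15.7 and 0.587 CPM in the sh900 libraries and at 0.305, 1.11 and 0.124 CPM with sh902. Tnfsf18 was at 1.58, 0.47 and 0.498 CPM and Tmc3, a transmembrane channel-like protein, at 0.305, 0.0854 and 0 CPM with sh902, differences of 3.68 ± 0.56 and 3.60 ± 0.56 from sh900. Rdh9, a retinol dehydrogenase, was at 0.511, 0.538 and 0.305 CPM with shNT, 3.79, 3.13 and 2.6 CPM with sh900 and 0, 0 and 0 CPM with sh902, above the control with sh900 and without a count with sh902. Fgf1, a fibroblast growth factor named after its values were seen, was at 11.2, 5.27 and 13.9 CPM in the shNT libraries and 24.6, 15.5 and 22.3 CPM in the sh900 libraries and at 4.54, 2.09 and 7.76 CPM with sh902. It was called higher with sh900 (1.15 ± 0.26) and lower with sh902 (-1.13, adjusted p = 0.0344). Nrp1 and Vcl also differed from sh902, by 1.38 ± 0.18 and 1.44 ± 0.16.

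Among genes below sh902, Iqgap2, a scaffold that binds actin and small GTPases, was at 48.4, 81.9 and 35.6 CPM with shNT, 21.3, 25.1 and 15.8 CPM with sh900 and 79.7, 141 and 50.04 CPM with sh902. It was called lower with sh900 (-1.34 ± 0.17) and higher with sh902 (0.67, adjusted p = 0.0429), and the hairpins differed by -2.02 ± 0.18. Atp5mpl, a small subunit of mitochondrial ATP synthase, was at 21.3, 25.6 and 20.5 CPM with shNT, 6.5, 4.63 and 9.17 CPM with sh900 and 30.6, 23.3 and 31.03 CPM with sh902, with no overlap between sh900 and either other group. Tnnt3, a troponin, was at 0.804, 0.231 and 2.1 CPM in shNT, 0, 0 and 0.11 CPM in sh900 and 0.548, 0.641 and 0.913 CPM in sh902; at these counts no fold is given. Fam135b was higher with both hairpins than with shNT, by 4.31 with sh902 and 1.45 with sh900, and Gm9934 is an unnamed gene model that differed by -2.85 ± 0.44.

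Promoter sequences were read for genes that were called, to show which short motifs lie beside their start sites. RefSeq promoters of GRCm38.p6, from 250 bases before to 50 after the start, were available for 32851 start sites and for 151 of the 207 genes named by rule or list. Both strands were searched for the AP-1 motif TGANTCA, the E-box CACGTG, the CRE TGACGTCA and, by name, the CArG box and the p53 half-site, none of which contains the letters of another. The AP-1 motif was in 7.81% of all promoters, in those of 6.16% of genes tested, 9.44% of 720 higher and 4.29% of 443 lower genes that had an entry. The E-box was in 7.15% of all promoters and in those of 11.7% of higher and 9.93% of lower genes, against 11.4% of genes tested. For the CRE the shares were 1.79% of all promoters and 3.47% of tested, 2.64% of higher and 2.26% of lower genes. The CArG box was in 1.63% of all promoters, 1.6% of tested, 1.94% of higher and 0.903% of lower genes, and the p53 half-site in 8.36%, 8.36%, 10.7% and 8.58%. Of 22 p53 targets with an entry 11 held a p53 half-site, among them Cdkn1a, Mdm2, Bax and Sesn1, and 4 of 24 contractile genes held a CArG box, among them Srf and Vcl. A motif named the sterol regulatory element, TCACNCCAC, was added after the values were seen; it was in 1.24% of all promoters, 1.41% of tested, 1.53% of higher and 2.71% of lower genes, and in 1 of 17 cholesterol genes with an entry. A match is a description of letters and does not show binding.

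The following 4 promoters are shown because each belongs to a gene whose call held in at least 8 of 9 leave-one-out fits and holds the motif named with it, in capitals. The Hmgcs1 promoter also has a match to the p53 half-site, left in lower case. All are on the plus strand of GRCm38: Anxa2 with the AP-1 motif at chr9:69453433-69453732, Plk2 with the CRE at chr13:110394794-110395093, Klf6 with the E-box at chr13:5861239-5861538, and Hmgcs1, the one lower gene, with the sterol regulatory element at chr13:119690101-119690400.
Anxa2: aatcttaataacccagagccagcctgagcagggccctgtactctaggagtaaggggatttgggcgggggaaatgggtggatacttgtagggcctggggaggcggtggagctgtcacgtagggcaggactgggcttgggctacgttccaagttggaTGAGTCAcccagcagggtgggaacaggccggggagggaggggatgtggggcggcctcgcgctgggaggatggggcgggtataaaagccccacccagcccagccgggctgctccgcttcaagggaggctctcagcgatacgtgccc
Plk2: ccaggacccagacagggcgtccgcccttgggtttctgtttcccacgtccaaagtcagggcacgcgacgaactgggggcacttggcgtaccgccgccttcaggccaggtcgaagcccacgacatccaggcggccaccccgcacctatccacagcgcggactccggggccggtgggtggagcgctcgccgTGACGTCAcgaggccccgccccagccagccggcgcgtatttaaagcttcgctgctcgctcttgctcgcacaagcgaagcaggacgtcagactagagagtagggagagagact
Klf6: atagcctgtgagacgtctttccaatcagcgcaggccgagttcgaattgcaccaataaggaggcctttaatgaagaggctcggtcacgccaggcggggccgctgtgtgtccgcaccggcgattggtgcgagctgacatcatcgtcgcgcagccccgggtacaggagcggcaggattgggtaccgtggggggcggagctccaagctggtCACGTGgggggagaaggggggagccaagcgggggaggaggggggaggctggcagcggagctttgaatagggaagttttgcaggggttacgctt
Hmgcs1: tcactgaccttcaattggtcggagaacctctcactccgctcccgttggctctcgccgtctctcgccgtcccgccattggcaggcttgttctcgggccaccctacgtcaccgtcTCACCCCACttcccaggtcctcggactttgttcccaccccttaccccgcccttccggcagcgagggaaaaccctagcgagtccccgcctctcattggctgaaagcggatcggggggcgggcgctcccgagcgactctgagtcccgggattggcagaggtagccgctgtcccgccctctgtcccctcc
The first base of each motif lies at -95, -62, -43 and -137 relative to the annotated start in that order.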

How the data were processed

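The deposited table held RSEM estimated counts per gene, already whole numbers, for 9 libraries. The submitters' processing notes name RSEM, STAR 2.5.0a, Trimmomatic 0.36, cutadapt, FastQC and the build GRCm38, without roles or order; the sources used here give no settings or annotation release. RSEM divides reads between similar genes by a model, and strand use is not stated, so paralogs and antisense pairs are uncertain. GENCODE M21 symbols matched 54165 of 54232 identifiers.

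Samples were grouped by their labelled treatment. Libraries held 23212472 to 32392496 counts, so genes under 1 CPM rest on few counts. In R 4.3.3, edgeR 4.0.16 (TMM, filterByExpr, robust quasi-likelihood F test, Benjamini-Hochberg over 17602 genes) was fitted to all 9 libraries with group and date label. The label pairs libraries: deviations from the group means correlated by at least 0.11 in every same-label pair, and by 0.171, 0.567 and 0.621 between shNT and sh900. However, shNT undated correlated more with sh900 03_09 (0.329) and sh902 03_09 (0.338) than with its own label, and shNT 30_08 correlated by 0.239 with sh900 undated, so the pairing was weakest for the undated shNT library. Same-label ratios used CPM + 0.5. Scripts were tested on simulated data. No replicates were duplicates; chi-square per degree of freedom was at least 52.6. Alternatives included DESeq2 1.42.0 and limma 3.58.1.

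Named genes were Phf2, the 12 genes each way with the largest change (mean of at least 1 CPM, same direction at each label), the 5 each way with the highest level, up to 4 called members per list, 5 each way against sh902 and 3 each way with opposite dated ratios of at least 5 CPM; others are marked or are further list members chosen after their values were seen. The comparison, lists and genes were chosen with earlier results of these data known. Some members of the gene lists are not reported here; list counts and sums include them.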

Additional observations from a re-analysis of the deposited data

Results flagged for a closer look

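The ratio of sh900 to shNT for cell cycle genes differed between the dated labels. Its median on the log2 scale was -1.90 at 30_08 and 2.44 at 03_09 for mitosis, and -1.74 and 1.28 for DNA replication. The summed level of the mitosis list at these labels was 5306 and 360 CPM with shNT and 1403 and 1952 CPM with sh900. For DNA replication the sum was 3128 and 479 CPM with shNT and 918 and 1062 CPM with sh900. In both lists the dated control libraries lay further apart than the dated sh900 libraries. With 1 library per group and label the difference between the labels was not tested. At the undated label the medians were 0.44 for mitosis and 0.66 for DNA replication, the same sign as at 03_09. Among all genes tested, 289 were at least 2-fold lower at 30_08 and at least 2-fold higher at 03_09. Of these, 266 had an undated ratio above 0. What made the ratio at 30_08 differ from that at 03_09 was not tested.

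In the direct test of the hairpins (edgeR adjusted p under 0.05), the log2 fold change of sh900 against sh902 was 4.20 for Cxcl1, 3.89 for Col19a1, 3.68 for Tnfsf18 and 3.60 for Tmc3. It was -2.86 for Fam135b, -2.85 for Gm9934, -2.08 for Atp5mpl and -2.02 for Iqgap2. The hairpins target the same gene. The shNT libraries enter this test only through the shared fit. The direct test was not repeated without the label as a block or without single libraries.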

How the results depend on the processing

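The counts depended on the pairing by date label. Without the replicate block edgeR called 0 genes, 0 higher and 0 lower, and 0 list members, both over 9 libraries and over the 6 libraries compared (1918 at an unadjusted p under 0.05 in the latter); Phf2 was at -1.39 (adjusted p = 0.125 and 0.37). With the replicate block in the 6 libraries alone 472 genes were called (336 higher, 136 lower, 81 list members), and 446 of them were among the 1557; in the 6 dated libraries 4, all higher (0 lower, 2 list members), with Phf2 at -1.41 (adjusted p = 0.171). DESeq2 called 2590 (1478 higher, 1112 lower, 1550 of the 1557 kept), limma-voom called 1984, RLE scaling gave 1558, scaling by library size 1441, no low-count filter 2209 (1446 higher), 1 CPM in 3 libraries 1559, and a minimum of 1.5-fold 210 (182 higher, 28 lower, 47 list members). The share of higher calls was 61.0%, and 71.2% in the 6 libraries, 86.7% at 1.5-fold, 93.2% without sh900 undated, 92.2% without sh900 30_08, 81.8% without shNT undated and 72.3% without sh902 undated. Leaving out 1 library gave 88 to 2912 calls, 82 to 1680 higher, 6 to 1232 lower and 24 to 251 list members; Phf2 lay between -1.66 and -1.21. Of the genes named by rule or list, 0 of 180 called and 10 of 27 not called changed sign under some alternative, Mcm2, Mki67, Sox2, Olig2 and Kdm7a among the latter. The called genes were selected on these same libraries, so their unchanged sign is no independent support. Sequencing depth limits genes under 1 CPM: 37 higher and 23 lower calls have a mean below it.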

Other observations

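Some calls held in all 9 leave-one-out fits lie outside every list above; they were chosen after their values were seen and are given as values. Myof, a membrane repair protein of the ferlin family, was at 7.93, 9.69 and 3.89 CPM in the shNT libraries and 64.8, 62.7 and 37.3 CPM in the sh900 libraries. S100a11, a calcium-binding partner of annexins, was at 4.06, 11.5 and 1.87 CPM in the shNT libraries and 23.6, 34.7 and 13.5 CPM in the sh900 libraries. Cd80, a co-stimulatory ligand of T cells, was at 1.79, 6.65 and 0.878 CPM in the shNT libraries and 22.4, 51.6 and 4.8 CPM in the sh900 libraries, and Ptk2b, a focal adhesion kinase relative, at 2.7, 1.35 and 1.53 CPM in the shNT libraries and 15.2, 8.12 and 17.4 CPM in the sh900 libraries. All 4 were higher at each label, with log2 fold changes of 3.02 ± 0.24, 2.32 ± 0.26, 3.04 ± 0.25 and 2.85 ± 0.25 and edgeR adjusted p of 0.0035, 0.00575, 0.0035 and 0.0035.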
